A study of Mus musculus with 4 samples.

Results

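Genes that immunologists use to recognise T cells, natural killer (NK) cells and cytotoxic lymphocytes were followed in RNA sequencing of sorted mouse bone marrow cells. They were taken by their gene symbols, Cd5, Cd4, Cd3e, Cd3g, Cd7, Klrd1, Nkg7, Gzmb, Ccl5 and Il2rb, and all 10 were found among the 23312 genes with a value in each library. The cells were sorted as B220+CD43+ pro-B cells, early B-lineage cells that are rearranging their heavy chain genes, from C57BL/6 mice. There were 2 libraries from Cnot3 fl/fl RERTCre mice and 2 from Cnot3 +/+ RERTCre mice. All mice carried RERTCre, a tamoxifen-inducible Cre that is not restricted to B cells. Tamoxifen was given to all, 1 mg on each of days 1, 2, 4 and 7, with sampling on day 10, so Cre induction was shared and the loxP-flanked Cnot3 alleles set the genotypes apart. The labels used here give no ages. The CNOT3 protein belongs to CCR4-NOT, the complex that shortens poly(A) tails of mRNAs.

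T cells recognise antigen through a receptor whose signal is carried by the CD3 chains, here represented by Cd3e and Cd3g, and helped by co-receptors such as CD4. NK cells carry inhibitory and activating lectin receptors such as CD94, the product of Klrd1, and respond to interleukin 2 and interleukin 15 through the receptor chain encoded by Il2rb. NK cells and cytotoxic T cells kill with granules that hold granzymes, and both release chemokines such as CCL5. Several of these genes are not exclusive to lymphocytes: dendritic cells, including the plasmacytoid kind, can carry CD4, and CD5 is also found on some B cells.

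The 2 members chosen to show their promoters were Cd5, the one member that passed the test between genotypes, and Gzmb, whose regulation by lymphocyte transcription factors is well studied. Both sequences are from RefSeq (GRCm38.p6), run 5′ to 3′ on the minus strand and span the start of the gene, most of each window lying upstream of it. The Cd5 window is chr19:10738925-10739224 and the Gzmb window chr14:56262285-56262584. Capitals mark the letters AGGAAG (an ETS-type motif), TGTGGT (a RUNX-type motif) and TGANTCA (an AP-1-type motif), searched on both strands.
Cd5: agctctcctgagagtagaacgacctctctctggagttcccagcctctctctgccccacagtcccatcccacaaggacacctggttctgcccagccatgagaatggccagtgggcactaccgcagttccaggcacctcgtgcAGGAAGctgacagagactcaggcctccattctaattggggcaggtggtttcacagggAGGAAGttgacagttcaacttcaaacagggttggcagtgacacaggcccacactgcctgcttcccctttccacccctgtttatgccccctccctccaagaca
Gzmb: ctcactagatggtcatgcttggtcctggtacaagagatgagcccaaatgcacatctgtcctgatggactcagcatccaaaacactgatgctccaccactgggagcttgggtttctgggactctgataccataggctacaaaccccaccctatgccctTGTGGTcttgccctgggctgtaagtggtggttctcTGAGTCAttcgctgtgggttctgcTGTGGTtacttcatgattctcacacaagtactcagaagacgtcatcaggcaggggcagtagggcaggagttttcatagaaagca

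The Cd5 window held AGGAAG 2 times and neither of the other motifs. The Gzmb window held TGTGGT 2 times and TGANTCA 1 time, and no AGGAAG. The 3 motifs do not overlap each other in these windows. AGGAAG was present in 35.4% of all 32851 promoter windows of the same length, TGTGGT in 16.8% and TGANTCA in 7.81%. The table also held Cd3e, with AGGAAG 2 times, Nkg7, with AGGAAG and TGTGGT 1 time each, and Cd3g, with none of the 3 motifs. Cd4, Cd7, Klrd1, Ccl5 and Il2rb had no promoter window there, so they were not searched.

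Values are in FPKM, which divides the fragments of a gene by its transcript length and by the library's mapped fragments, so levels of different genes can be set side by side. Each library listed 14684 to 15126 genes above 0. Absolute depth was unknown, and from the spacing of the lowest values the depths of Cnot3 fl/fl replicates 1 and 2 and Cnot3 +/+ replicate 1 were 1.06, 1.11 and 0.829 times that of Cnot3 +/+ replicate 2. One library stood apart: the X-inactivation transcript Xist was 0.024 FPKM and the Y-linked Ddx3y 15.99 FPKM in Cnot3 +/+ replicate 1, against 54.3 FPKM or more and 0.0093 FPKM or less elsewhere. Summed over the whole gene, Cnot3 itself was at 39.0 and 40.3 FPKM in the Cnot3 fl/fl libraries, against 41.6 and 39.3 FPKM in the Cnot3 +/+ libraries, which does not check the genotype labels, since the loxP-flanked exons are not named.

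Markers of the B lineage and of other cells were set beside the sorted label. Values summed over a gene do not resolve the B220 form of Ptprc, so its level does not check the sort. Ptprc, which encodes B220, and Spn, which encodes CD43, were at 262 FPKM or more and 214 FPKM or more in Cnot3 fl/fl libraries, against 227 FPKM or more and 177 FPKM or more in Cnot3 +/+ libraries. Siglech, a marker of plasmacytoid dendritic cells, was at 1115 and 1331 FPKM in the Cnot3 fl/fl libraries, against 1456 and 1370 FPKM in the Cnot3 +/+ libraries. Transcripts of cell types other than the labelled one were thus among the most abundant. In bulk RNA, fewer cells of a type and less RNA per cell cannot be told apart.

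Across the 10 genes the levels spanned more than 2 orders of magnitude and fell into a similar order in both genotypes. Cd7, an immunoglobulin-family surface protein gene of T and NK cells and their precursors, was the most abundant, at 955 and 1156 FPKM in the Cnot3 fl/fl libraries, against 879.6 and 805 FPKM in the Cnot3 +/+ libraries. Which cells carried the Cd7 transcripts here was not tested. The chemokine gene Ccl5 followed, at 375 and 302 FPKM in the Cnot3 fl/fl libraries, against 411 and 357 FPKM in the Cnot3 +/+ libraries. Both stood clear of every member below them in each genotype. Cd4, the third, stood clear of the members below it in Cnot3 +/+ libraries, but in Cnot3 fl/fl libraries its lower value lay under the higher one of Nkg7. In Cnot3 fl/fl libraries Klrd1, Nkg7 and Il2rb formed a middle group whose neighbours overlapped. In Cnot3 +/+ libraries Nkg7, Il2rb and Klrd1 did so in that order. Gzmb, Cd3g, Cd5 and Cd3e were the lowest members, and the neighbours among them overlapped in Cnot3 fl/fl libraries. In Cnot3 +/+ libraries Cd3g stood above Gzmb, Gzmb overlapped Cd3e, and Cd5 lay below both.

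**Figure D1:**
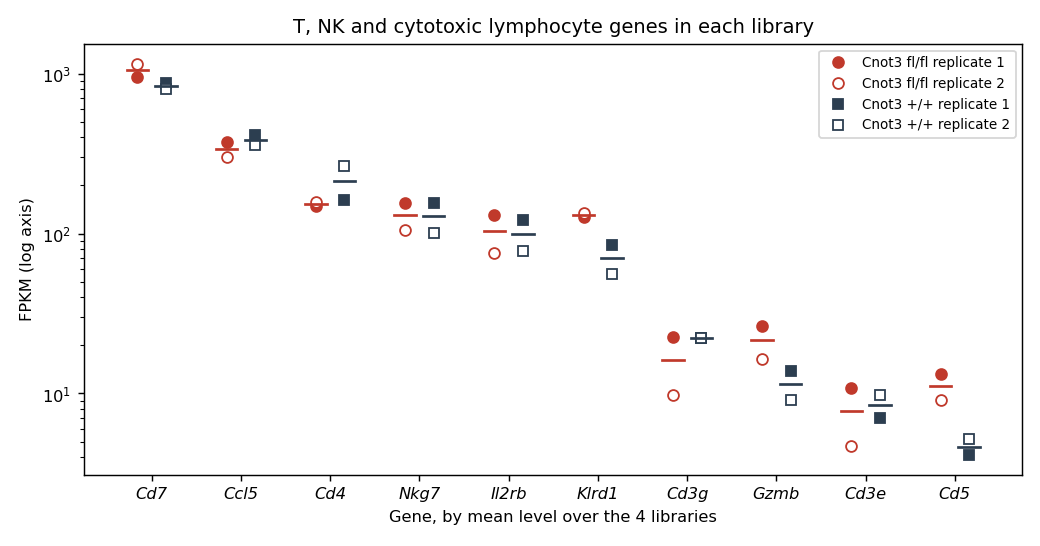
FPKM of each of the 10 genes (log axis) in the 2 Cnot3 fl/fl libraries (circles) and the 2 Cnot3 +/+ libraries (squares), filled for replicate 1 and open for replicate 2, with a bar at each genotype's mean. Cd7 is at the top, between 805 and 1156 FPKM, and the Cnot3 fl/fl values of Cd5, Gzmb, Klrd1 and Cd7 lie above both Cnot3 +/+ values.

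The summed level of the 10 genes was 1964 and 1971 FPKM in the Cnot3 fl/fl libraries, against 1863 and 1708 FPKM in the Cnot3 +/+ libraries, a ratio of 1.10 that rests mostly on Cd7. Each gene was compared between genotypes with limma on log2(FPKM + 1), fitted over the 11017 genes whose mean reached 1 FPKM, all 10 among them. One member rose, Cd5, and 9 did not pass at a Benjamini-Hochberg adjusted p under 0.05. Over all genes tested, 6.22% were called higher and 3.28% lower, so 1 of 10 is near the background. The authors' deposited table marks 3 of the 10 as significant, Cd5, Klrd1 and Gzmb, against 6.64% of the same 11017 genes in either direction. Log2 fold changes had the median 0.03 over the 10 genes and -0.01 over all genes tested, with 6 members above 0 and 4 below. With 2 libraries against 2, the smallest p that exact permutation allows is 0.333. The smaller p-values of limma rest on its model, which joins each gene's own spread with spread borrowed across genes.

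Both Cnot3 fl/fl libraries lay above both Cnot3 +/+ libraries in 4 members, Cd5, Klrd1, Gzmb and Cd7, against 32.7% of all genes tested. They lay below in 1 member, Cd4, against 31.7% of all genes tested. The libraries of the genotypes overlapped in Cd3e, Cd3g, Nkg7, Ccl5 and Il2rb.

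**Figure D2:**
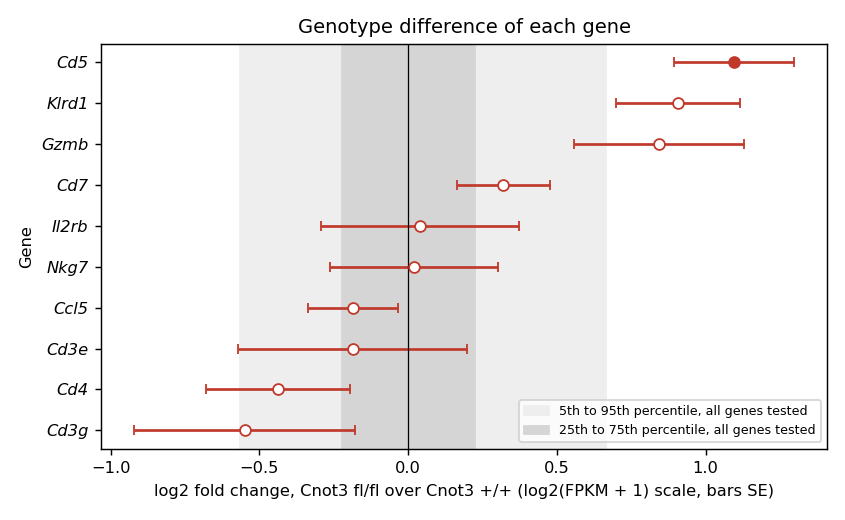
Log2 fold change of each gene, Cnot3 fl/fl over Cnot3 +/+, on the log2(FPKM + 1) scale with its standard error from limma (2 libraries per genotype; filled point, adjusted p under 0.05). Grey bands give the middle 50% and 90% of the 11017 genes tested; Cd5, Klrd1 and Gzmb lie beyond the 95th percentile, 0.66.

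Among the surface proteins of T cells, Cd5 encodes a scavenger-receptor family protein that dampens antigen receptor signals. It lies on chromosome 19 from 10792632 to 10813464 (mm9, as the files give it; the sources used here do not say whether starts count from 0 or 1). Cd5 was at 13.2 and 9.16 FPKM in the Cnot3 fl/fl libraries, against 4.11 and 5.17 FPKM in the Cnot3 +/+ libraries. Both Cnot3 fl/fl libraries were high and the groups did not overlap. The means were 11.2 ± 2.85 FPKM in the Cnot3 fl/fl libraries, against 4.64 ± 0.749 FPKM in the Cnot3 +/+ libraries (SD, n = 2 each), a ratio of 2.41. In limma the log2 fold change was 1.10 ± 0.20 (SE) at an adjusted p of 0.045. In the authors' deposited table Cd5 had a q-value of 0.0022. The limma call was lost without any one of the libraries, while the direction stayed. The log2 fold change was 0.85 without Cnot3 fl/fl replicate 1 (adjusted p = 0.21) and 1.34 without Cnot3 fl/fl replicate 2 (adjusted p = 0.21). It was 0.96 without Cnot3 +/+ replicate 1, which carries the Y-linked transcripts (adjusted p = 0.13), and 1.23 without Cnot3 +/+ replicate 2 (adjusted p = 0.11).

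Cd4 encodes the co-receptor for MHC class II and lies on chromosome 6 from 124814710 to 124838227. It was at 148 and 158 FPKM in the Cnot3 fl/fl libraries, against 162.5 and 264 FPKM in the Cnot3 +/+ libraries. The Cnot3 fl/fl values lay close together, and most of the gap came from Cnot3 +/+ replicate 2. The log2 fold change was -0.44, with a 95% confidence interval from -1.07 to 0.20 (limma, adjusted p = 0.27), and -0.09 without that library.

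Cd3e and Cd3g encode signalling chains of the T-cell receptor complex. They are neighbours on chromosome 9, Cd3g from 44777654 to 44788514 and Cd3e from 44806825 to 44817673. Cd3e was at 10.9 and 4.67 FPKM in the Cnot3 fl/fl libraries, against 7.05 and 9.84 FPKM in the Cnot3 +/+ libraries. Cd3g was at 22.4 and 9.83 FPKM in the Cnot3 fl/fl libraries, against 22.3 and 22.3 FPKM in the Cnot3 +/+ libraries. In both genes Cnot3 fl/fl replicate 2 was the lowest library, with replicate 1 over replicate 2 ratios of 2.33 for Cd3e and 2.28 for Cd3g. Their log2 fold changes were -0.19 and -0.55 with standard errors of 0.39 and 0.37 (limma, adjusted p = 0.77 and 0.35), and without Cnot3 fl/fl replicate 2 they were 0.35 and 0.0069. The third CD3 gene, Cd3d, had the same low library, at 19.3 and 6.93 FPKM in the Cnot3 fl/fl libraries, against 11.4 and 15.1 FPKM in the Cnot3 +/+ libraries.

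Cd7 lies on chromosome 11 from 120898062 to 120900792. Its means were 1055 ± 142 FPKM in the Cnot3 fl/fl libraries, against 842 ± 52.7 FPKM in the Cnot3 +/+ libraries (SD, n = 2 each). The groups did not overlap, but the log2 fold change of 0.32 had a 95% confidence interval from -0.09 to 0.73 (limma, adjusted p = 0.23).

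Of the NK receptor genes, Klrd1 encodes CD94, which pairs with NKG2 lectins and binds the non-classical MHC molecule Qa-1. It lies in the lectin receptor region of chromosome 6, from 129541828 to 129548793. Klrd1 was at 127 and 134 FPKM in the Cnot3 fl/fl libraries, against 85.1 and 56.1 FPKM in the Cnot3 +/+ libraries. The groups did not overlap, and the Cnot3 fl/fl libraries were nearly equal. The ratio of the means was 1.85 and the log2 fold change 0.91 with a standard error of 0.21, which missed the threshold in limma (adjusted p = 0.062), whereas the authors' deposited table gave it a q-value of 0.0040. Without Cnot3 +/+ replicate 2 the log2 fold change was 0.61, and without Cnot3 +/+ replicate 1 it was 1.20.

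Il2rb, on chromosome 15 from 78310978 to 78325496, encodes the beta chain shared by the receptors for interleukin 2 and interleukin 15. It was at 130.4 and 76.0 FPKM in the Cnot3 fl/fl libraries, against 121 and 77.6 FPKM in the Cnot3 +/+ libraries. The spread within each genotype was far larger than the gap between their means, and the 95% confidence interval of the log2 fold change ran from -0.83 to 0.91 (limma, adjusted p = 0.94).

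Among the effector genes, Gzmb encodes granzyme B, a serine protease of cytotoxic granules, on chromosome 14 from 56877694 to 56881097. It was at 26.5 and 16.5 FPKM in the Cnot3 fl/fl libraries, against 13.7 and 9.16 FPKM in the Cnot3 +/+ libraries. The groups did not overlap. The ratio of the means was 1.88 and the log2 fold change 0.84 ± 0.29 (SE), at an adjusted p of 0.12 in limma. The authors' deposited table gave Gzmb a q-value of 0.021. Granzyme genes resemble each other, so shared reads make single values uncertain; its relatives Gzmc, Gzmk and Gzmm were each at 1.85 FPKM or less in all 4 libraries. Gzma, the other abundant granzyme gene, was at 115 and 117 FPKM in the Cnot3 fl/fl libraries, against 173 and 99.8 FPKM in the Cnot3 +/+ libraries.

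Nkg7, on chromosome 7 from 50692507 to 50693616, encodes a granule membrane protein needed for full cytotoxic release. It was at 155 and 105 FPKM in the Cnot3 fl/fl libraries, against 156 and 101 FPKM in the Cnot3 +/+ libraries. Each genotype had one high and one low library, and the 95% confidence interval of the log2 fold change ran from -0.72 to 0.76 (limma, adjusted p = 0.97). Ccl5, on chromosome 11 from 83339280 to 83344020, encodes a chemokine that draws in T cells and monocytes. Its log2 fold change was -0.19, with a 95% confidence interval from -0.58 to 0.21 (limma, adjusted p = 0.43), and its libraries overlapped.

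The same 4 libraries showed a second split, between replicates 1 and 2 of both genotypes. In Nkg7 the ratio of replicate 1 to replicate 2 was 1.48 in Cnot3 fl/fl and 1.54 in Cnot3 +/+ libraries. In Il2rb these ratios were 1.72 in Cnot3 fl/fl and 1.56 in Cnot3 +/+ libraries, and in Gzmb 1.604 in Cnot3 fl/fl and 1.499 in Cnot3 +/+ libraries. Ccl5 was also higher in replicate 1 of each genotype, 1.24 times in Cnot3 fl/fl and 1.15 times in Cnot3 +/+ libraries. The NK transcription factor gene Eomes did the same, at 17.0 and 10.96 FPKM in the Cnot3 fl/fl libraries, against 16.4 and 10.3 FPKM in the Cnot3 +/+ libraries. Of 19 other NK and innate lymphoid genes tested, 13 were higher in replicate 1 of both genotypes, as were 4 of the 10 members and 25.6% of all genes tested. The ratio was above 1.3 in both genotypes in 3 members, in 8 of the 19 and in 1.82% of all genes tested, at a limit set after the values were seen. The split was not particular to NK genes. Of 18 other T-cell receptor and signalling genes, 10 were higher in replicate 1 of both genotypes and 5 passed that limit. It was also passed by 1 of 5 T-cell transcription factors and 2 of 15 other cytotoxic effector genes. Of the 19 NK and innate lymphoid genes, 2 were lower in replicate 1 of both genotypes, against 3000 of all 11017 genes tested. Among 22 dendritic cell markers and 15 B-lineage markers no gene passed that limit. The Y-linked transcripts were in replicate 1 of Cnot3 +/+ only, and their part in these ratios was not tested. Replicate numbers are not stated to mark a shared day or litter.

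**Figure D3:**
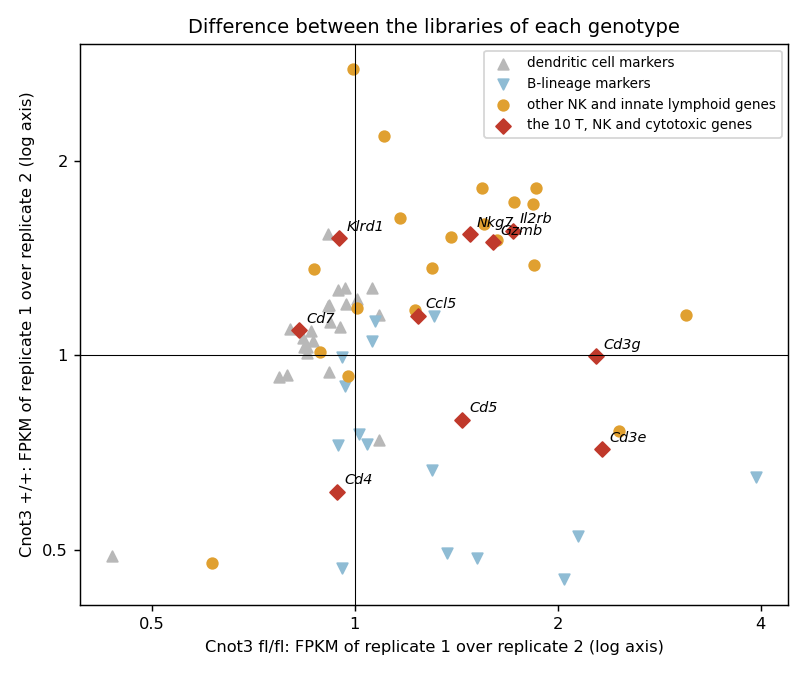
Ratio of replicate 1 to replicate 2 in FPKM within Cnot3 fl/fl (horizontal) and within Cnot3 +/+ (vertical), both on log axes, for the 10 genes (labelled), other NK and innate lymphoid genes, dendritic cell markers and B-lineage markers. Nkg7, Il2rb and Gzmb sit with most NK genes in the upper right. Cd3e and Cd3g lie far to the right, but at 0.72 (Cd3e) and 0.998 (Cd3g) on the vertical axis.

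The markers that define T and NK cells were set beside these results. The 7 T-cell markers, Cd3d, Cd3e, Cd3g, Cd247, Cd28, Bcl11b and Trat1, summed to 79.8 and 40.5 FPKM in the Cnot3 fl/fl libraries, against 71.3 and 70.8 FPKM in the Cnot3 +/+ libraries. None was at 0 in all libraries. Bcl11b, the factor that commits cells to the T lineage, was lowest, between 0.286 and 0.524 FPKM over the 4 libraries. The 6 NK markers, Ncr1, Klrb1c, Eomes, Prf1, Gzma and Klre1, summed to 312 and 237 FPKM in the Cnot3 fl/fl libraries, against 319 and 186 FPKM in the Cnot3 +/+ libraries, and none was at 0. No marker of either set passed the test. In 5 of the 6 T-cell markers tested and in 3 of the 6 NK markers the log2 fold change was below 0. Over all 11017 genes tested, 5617 were below 0. The median of the T-cell markers tested was -0.17, and it was 0.10 without Cnot3 fl/fl replicate 2. Cd247, a T-cell and NK signalling chain, was at 17.4 and 11.1 FPKM in the Cnot3 fl/fl libraries, against 21.2 and 14.5 FPKM in the Cnot3 +/+ libraries, and Cd28 and Trat1 had log2 fold changes of 0.0022 and -0.10. Ncr1, the NK receptor NKp46, was at 104 and 56.2 FPKM in the Cnot3 fl/fl libraries, against 52.4 and 28.9 FPKM in the Cnot3 +/+ libraries (limma, adjusted p = 0.18). Ncr1 lies on chromosome 7 from 4289325 to 4296766, near Cnot3, which runs from 3596870 to 3629155 (mm9). The part of this position in the Ncr1 difference was not tested. Klrb1c, Klre1, Prf1 and Eomes had log2 fold changes between -0.05 and 0.17. The part of T, NK or dendritic cells in the differences of Cd5, Klrd1 and Gzmb was not tested.

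Other genes of the same pathways were read from lists chosen with earlier results of these data known. Over all genes tested, the shares called were 6.22% higher and 3.28% lower. In 18 tested genes of the T-cell receptor complex and its signalling, 2 rose, none fell and 16 did not pass, with a median log2 fold change of -0.06. The 2 encode the alpha and beta chains of the CD8 co-receptor. The alpha chain is also carried by some dendritic cells, and which cells carried either transcript here was not tested. Cd8a was at 129 and 135 FPKM in the Cnot3 fl/fl libraries, against 15.7 and 25.7 FPKM in the Cnot3 +/+ libraries (limma, adjusted p = 0.024). Cd8b1 was at 167 and 188 FPKM in the Cnot3 fl/fl libraries, against 33.4 and 61.0 FPKM in the Cnot3 +/+ libraries (limma, adjusted p = 0.040). The kinase gene Fyn, the most abundant of the list, averaged 339 FPKM in the Cnot3 fl/fl libraries, against 297 FPKM in the Cnot3 +/+ libraries and did not pass. Of 5 tested T-cell transcription factors, Zbtb7b (ThPOK, which directs CD4 T-cell choice) rose, at 16.5 FPKM in the Cnot3 fl/fl libraries, against 11.3 FPKM in the Cnot3 +/+ libraries on average (limma, adjusted p = 0.042), and 4 did not pass. Tcf7 and Lef1, which act early in T cells, had log2 fold changes of 0.16 and -1.24 (limma, adjusted p = 0.082 for Lef1).

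Of 19 other NK and innate lymphoid genes, 1 rose, none fell and 18 did not pass, with a median log2 fold change of -0.03. The shares over all genes tested were 6.22% higher and 3.28% lower. Hcst, which encodes the signalling adaptor DAP10 of the receptor NKG2D, averaged 77.2 ± 0.408 FPKM in the Cnot3 fl/fl libraries, against 48.7 ± 5.87 FPKM in the Cnot3 +/+ libraries (SD, n = 2 each; limma, adjusted p = 0.041). The adaptor genes Tyrobp and Fcer1g, which myeloid and dendritic cells share with NK cells, averaged 2863 and 443 FPKM in the Cnot3 fl/fl libraries, against 3196 and 473 FPKM in the Cnot3 +/+ libraries and did not pass. Of 15 other cytotoxic effector genes tested, 2 rose, 1 fell and 12 did not pass. Stxbp2, which acts in granule exocytosis, averaged 173 FPKM in the Cnot3 fl/fl libraries, against 105 FPKM in the Cnot3 +/+ libraries (limma, adjusted p = 0.041). Ctsc, the protease that activates granzymes, averaged 62.0 FPKM in the Cnot3 fl/fl libraries, against 45.8 FPKM in the Cnot3 +/+ libraries (limma, adjusted p = 0.041). Lamp1, a lysosomal membrane protein gene, fell to 119 FPKM in the Cnot3 fl/fl libraries, against 156 FPKM in the Cnot3 +/+ libraries (limma, adjusted p = 0.049). The granule proteoglycan gene Srgn, the most abundant of the list, averaged 246 FPKM in the Cnot3 fl/fl libraries, against 306 FPKM in the Cnot3 +/+ libraries and did not pass.

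Among 11 tested genes for binding partners of the member proteins, 2 rose, none fell and 9 did not pass. The shares over all genes tested were 6.22% higher and 3.28% lower. Ccr1, a receptor for CCL5, was at 19.7 and 25.7 FPKM in the Cnot3 fl/fl libraries, against 1.08 and 0.930 FPKM in the Cnot3 +/+ libraries (limma, adjusted p = 0.0097). Stat5a, which acts downstream of Il2rb, averaged 35.2 FPKM in the Cnot3 fl/fl libraries, against 25.4 FPKM in the Cnot3 +/+ libraries (limma, adjusted p = 0.043). Il2rg, the gamma chain that pairs with Il2rb, averaged 139 FPKM in the Cnot3 fl/fl libraries, against 108 FPKM in the Cnot3 +/+ libraries (limma, adjusted p = 0.10). H2-T23, which encodes Qa-1, and Cd72, a reported ligand of CD5, had log2 fold changes of -0.03 and -0.26. Sectm1a and Sectm1b, relatives of the human CD7 ligand gene, were listed at 0 in all 4 libraries. Without any one library, these 5 lists lost all or most of their calls. Few genes of the whole table were called in such fits, so this loss says little about the lists.

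Markers of other cells differed between the genotypes in both directions. Their counts stand beside shares of 6.22% higher and 3.28% lower over all genes tested. The 23 dendritic cell markers summed to 10087 and 11871 FPKM in the Cnot3 fl/fl libraries, against 12433 and 11864 FPKM in the Cnot3 +/+ libraries. Of the 22 tested, 3 rose (Tlr7, Clec9a and Zbtb46, with log2 fold changes of 0.60, 0.85 and 1.59) and 2 fell (Cox6a2 and Clec10a, with -0.77 and -0.60). The most abundant, Bst2, Irf8, Ly6d and Siglech, did not pass. The 15 B-lineage markers summed to 1351 and 1291 FPKM in the Cnot3 fl/fl libraries, against 1517 and 1863 FPKM in the Cnot3 +/+ libraries. Of these, 6 fell (among them Cd79a, Vpreb3, Igll1, Vpreb1 and Pax5), none rose and 9 did not pass, among them the abundant Ptprc, Dntt, Spn and Cd79b. The 14 neutrophil and monocyte markers with a value summed to 348 and 258 FPKM in the Cnot3 fl/fl libraries, against 239 and 272 FPKM in the Cnot3 +/+ libraries. Of 13 tested, Itgam, Elane and Ctsg rose and 10 did not pass, among them the abundant S100a9, Ccr2, S100a8 and Lyz2. None of these markers was at 0 in all 4 libraries. Without any one library, each of the 3 lists lost its calls, but few genes of the whole table were called in such fits.

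**Figure D4:**
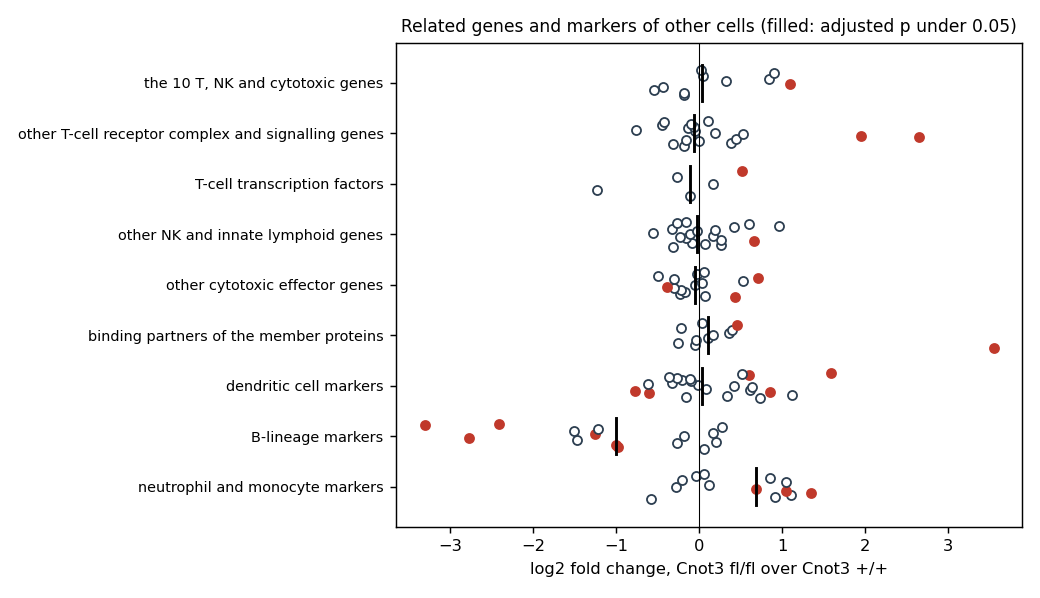
Log2 fold change, Cnot3 fl/fl over Cnot3 +/+, of each tested gene in the 10-gene set, 5 lists of related genes and 3 lists of markers of other cells (red filled points, adjusted p under 0.05 in limma; vertical bars, list medians). The medians of the 10-gene set and of the related lists lie between -0.11 and 0.11, that of the B-lineage markers at -1.0 and that of the neutrophil and monocyte markers at 0.68. With a minimum mean of 5 FPKM instead, the neutrophil and monocyte median was 0.0088 and the B-lineage median -0.99.

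Because CCR4-NOT acts on mRNAs partly through elements in their 3′ untranslated regions, the annotated 3′ untranslated region of each member was read from GENCODE M21 transcripts (GRCm38), 1 transcript per gene. Their lengths ran from 152 bases in Nkg7 and 199 in Ccl5 to 1553 in Cd4 and 2220 in Il2rb. In 8 of the 10 members the region was shorter than 988 bases, the median of the 10017 tested genes with a matched transcript. The AU-rich letters ATTTA, searched on the transcript strand, occurred in 4 of the 10, once in Cd4 and 2 times each in Cd3e, Klrd1 and Il2rb, against 66.5% of the matched genes. Cd5 and Gzmb, with regions of 454 and 581 bases, held none. The longer element TATTTAT, which contains ATTTA, occurred in Cd4 alone among the 10, against 27.9% of the matched genes, and its site is shown because it is the sole one. It starts at base 209 of the region, in chr6:124866019-124866047 on the minus strand (GRCm38), with the element in capitals.
Cd4: ccccatcagctTATTTATtcttcgctgct
These matches describe letters in an annotated transcript, and isoform use was not measured here.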

How the data were processed

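RNA was measured in 4 libraries of sorted B220+CD43+ mouse bone marrow cells, 2 per genotype; genotype and replicate number came from the labels, and the series' design text calls the replicates individual mice. Libraries were made with a stranded mRNA kit and 15 PCR cycles, per the labels' protocols. The submitters' processing notes list Cuffnorm 2.2.1 and Cufflinks 2.2.1, Bowtie2 2.2.3.0, TopHat2 2.0.13, bcl2fastq 1.8.4 and the build mm9. How strand was used, the annotation and any filters were not given there. The authors deposited FPKM values for 23312 genes per library, and, for each gene, the p-value and q-value of their own genotype comparison.

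The 11017 genes whose mean reached 1 FPKM were compared on the log2(FPKM + 1) scale with limma 3.58.1 (R 4.3.3); the scale understates changes of low genes. The fit (lmFit, then eBayes allowing the variance to follow the mean) was two-sided and had no term other than genotype, with Benjamini-Hochberg adjustment over all genes tested and calls at an adjusted p under 0.05. It had 2 residual and 2.69 prior degrees of freedom, and was tested on simulated data. Ratios are of mean FPKM. The members and lists were chosen with earlier results of these data known, and the ETS-type motif after the promoter sequences were read. Genes were named by rule: all members, every called gene and the 3 (other cells: 4) most abundant genes of each list, and all defining T-cell and NK markers; Gzmc, Gzmk and Gzmm were added after their values were seen, and a gene that the rule names is not reported here. Relative depth came from genes below 0.3 FPKM in both members of a library pair, as the ratio shared within 0.5% by the most genes (9.61% to 13.4% of them), so it is an estimate. Alternatives were 2 other pseudocounts, 2 other filters, 2 scalings, 2 other eBayes settings, a replicate block and leaving out each library.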

Additional observations from a re-analysis of the deposited data

How the results depend on the processing

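The call of Cd5 and the numbers of genes called over the whole table depended on the settings. With no filter on low values, 4 genes were higher and 1 lower, and 0 members were called. Without the eBayes trend, 242 genes were higher and 69 lower, with 0 members called. With one library left out, 2 to 18 genes were higher and 0 to 13 lower, and 0 members were called in each case; at an unadjusted p under 0.05 there were 2059 to 3257 genes. Cd5 kept its direction under all 13 alternatives, with adjusted p-values from 0.033 to 0.21, and lost its call in 7 of them. With one library left out, the log2 fold change ran from -0.29 to 0.33 in Nkg7, from -0.35 to 0.42 in Il2rb, from -0.72 to 0.35 in Cd3e and from -1.11 to 0.0069 in Cd3g, so these 4 had no stable direction. The other members kept their direction throughout. In the related and other-cell lists no gene was called with no filter, and without the trend 4 were (1 each in the T-cell receptor, binding partner, dendritic and B-lineage lists).

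With replicate number as a block, 456 genes were higher and 270 lower, Cd5 had an adjusted p of 0.055 and Gzmb one of 0.036 with an unchanged log2 fold change of 0.84. Under the block, 2 other T-cell receptor genes and 2 other NK and innate lymphoid genes were higher, and no T-cell transcription factor was called. Higher too were 1 cytotoxic effector gene and 1 binding partner, and none of either list was lower. Of the defining NK markers 1 was higher. It is already in these counts, since each defining NK marker also belongs to the NK or the cytotoxic list. Among markers of other cells, 4 dendritic markers were higher and 0 lower, 4 B-lineage markers were lower and 2 neutrophil and monocyte markers higher. Deviations of same-numbered libraries from their genotype means had a Pearson r of 0.14 across genes. With 2 pairs and no label that ties the numbers to a shared day or litter, the libraries share only a number. The summed level of the members had a ratio of 1.16 after quantile normalization and of 1.06 to 1.15 with one library left out. Absolute depth was unknown, so no limit from counting error can be given.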
